A study of Mus musculus with 9 samples.

Results

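Colon RNA from 6 mouse libraries made after hindlimb casting was compared with RNA from 3 control libraries (CT), which are all 9 libraries of the series. The 6 cast libraries were all those labelled IM or IM-HYA, pooled over diet, and each was read on its own so that changes shared by both diets could be told from changes carried by a few libraries. The CT mice were wild type, on a normal diet and without a cast. The 3 IM libraries came from wild-type mice on the normal diet whose hindlimb was held in a plastic cast for 10 days, and the 3 IM-HYA libraries from wild-type mice with the same cast on a diet with HYA, an agent whose name the labels do not write out. The series has no group on HYA alone, without a cast. Age and sex were not in the labels. Nothing there says that the libraries are of separate animals, so the p-values reflect the spread between libraries, which may be technical. The casting was done under anaesthesia per the labels, and whether CT mice were anaesthetized is not stated.

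Casting a limb unloads its muscles and restrains the animal, and restraint is known as a stressor that raises circulating glucocorticoids in mice. The colon is a mixed tissue of surface colonocytes, goblet and hormone cells, crypt cells, smooth muscle and immune cells, and its cells carry their own circadian clock. Glucocorticoids act through a nuclear receptor that switches on genes such as Fkbp5 and Per1, while heat shock factors switch on chaperone genes through heat shock elements.

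The libraries held between 19638401 and 42917198 counts, and 18414 of 45777 genes were abundant enough to be tested. Libraries differed within groups in ways the labels do not explain. In CT 2, genes of the exocrine pancreas took 33.2% of counts, against 0.121% to 0.581% in the other 8 libraries, and the share of the 18S ribosomal sequence Rn18s-rs5 ran from 2.88% to 23.2%. Neither share differed between arms (exact permutation test, two-sided, adjusted p = 0.262 and 0.298, where the smallest raw p possible was 0.0119). Mean log2 CPM of colon epithelial markers ran from 9.38 to 9.52 in CT and from 8.86 to 9.88 in cast libraries. Hoxd13, a gene of the hindmost gut, ran from 4.62 to 105 CPM in CT and from 0 to 105 CPM in cast libraries. Anterior colon Hox genes were less even, with a mean log2 CPM of -0.47 to -0.03 in CT and of -0.52 to 4.64 in cast libraries. Of the cast libraries, 4 lay above every control and 1 below every control. All 9 of these genes had a fitted log2 fold change above 0 in cast over CT, against 9736 of all 18414 genes. Their median was 1.94, with 3.43 in IM and 0.31 in IM-HYA, beside 0.03 for all genes. With an unadjusted edgeR p under 0.05, 3 lay above and 0 below, against 2.82% and 3.39% of all genes. Levels are CPM, counts scaled to library size after TMM normalization, and every fold change is a log2 value from edgeR's quasi-likelihood test, cast over CT, with its standard error (SE).

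One gene differed between the arms after Benjamini-Hochberg adjustment over the 18414 genes, which is 0.00543% of them. It was G530011O06Rik (gene 654820), a long non-coding RNA on the minus strand of chromosome X at 169975043 to 169978917 in GRCm38, close to the far end of that chromosome. The gene was at 18.9, 21.1 and 20.0 CPM in the CT libraries. In the IM libraries it was at 1.01, 0.777 and 0.698 CPM, and in the IM-HYA libraries at 0.499, 0.937 and 0.871 CPM. No cast library came near a control, and the cast libraries of both diets lay within one narrow band. The fold change was -4.64 (SE 0.25, adjusted p = 0.000161), a 24.9-fold lower level. It was -4.58 (SE 0.33, adjusted p = 0.00237) in IM against CT and -4.69 (SE 0.33, adjusted p = 0.00194) in IM-HYA against CT, comparisons that share the CT libraries. The diets did not differ past the threshold (IM-HYA against IM -0.11, SE 0.29, adjusted p = 0.876). The raw counts were 800, 309 and 350 in CT and between 15 and 47 in the cast libraries, so the low arm was still well above 0. The deposited TPM values, which are per length, were 10.1 ± 4.17 (SD, n = 3) in CT and 0.592 ± 0.188 (SD, n = 6) in cast libraries.

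The promoter window of this gene is shown because its transcript is the one that differed. It holds 250 bases before and 50 after the RefSeq start site on chrX:169978868-169979167, minus strand, GRCm38.p6, and the capital marks the start site.
G530011O06Rik: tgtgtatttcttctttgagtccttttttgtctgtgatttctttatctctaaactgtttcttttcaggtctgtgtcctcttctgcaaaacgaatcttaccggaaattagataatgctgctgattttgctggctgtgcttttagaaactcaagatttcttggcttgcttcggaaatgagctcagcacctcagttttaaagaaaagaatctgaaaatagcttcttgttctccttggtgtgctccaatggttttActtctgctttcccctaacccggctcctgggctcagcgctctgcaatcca
RefSeq lists a second start site for this gene on chromosome Y, at 90755001 to 90755300 for the window. The windows on X and Y were identical at 79 of 300 positions when read base by base without alignment. Windows set off from each other by a few bases would give a low value too, so this does not measure how alike the copies are. Whether reads were shared between X and Y was not tested.

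The gene lies inside Mid1, a ubiquitin ligase gene on the opposite strand (169685199 to 170005736 in GENCODE), and overlaps an exon of it. Whether the authors counted by strand is not stated in the labels or notes, and reads of either gene could have been counted for the other. Mid1 itself was at 5.76 ± 1.004 CPM (SD, n = 3) in CT and 6.30 ± 1.17 (SD, n = 6) in cast libraries (0.12, SE 0.22, adjusted p = 0.951). Erdr1, the next tested gene toward the chromosome end, was at 35.6 ± 11.9 and 44.5 ± 20.9 CPM (0.31, SE 0.39, adjusted p = 0.916). On the other side, Hccs, a mitochondrial haem lyase, was at 21.7 ± 6.97 and 19.8 ± 3.20 CPM (adjusted p = 0.944), and Arhgap6, a GTPase activator, at 6.17 ± 1.44 and 4.61 ± 1.17 CPM (adjusted p = 0.782). Each of these neighbours overlapped between the arms, in contrast to the gene between them. The Y-linked gene Ddx3y was read in every library, between 31.9 and 49.2 CPM in CT and between 20.2 and 67.4 CPM in cast libraries, and Xist had at most 7 counts in any library.

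**Figure D1:**
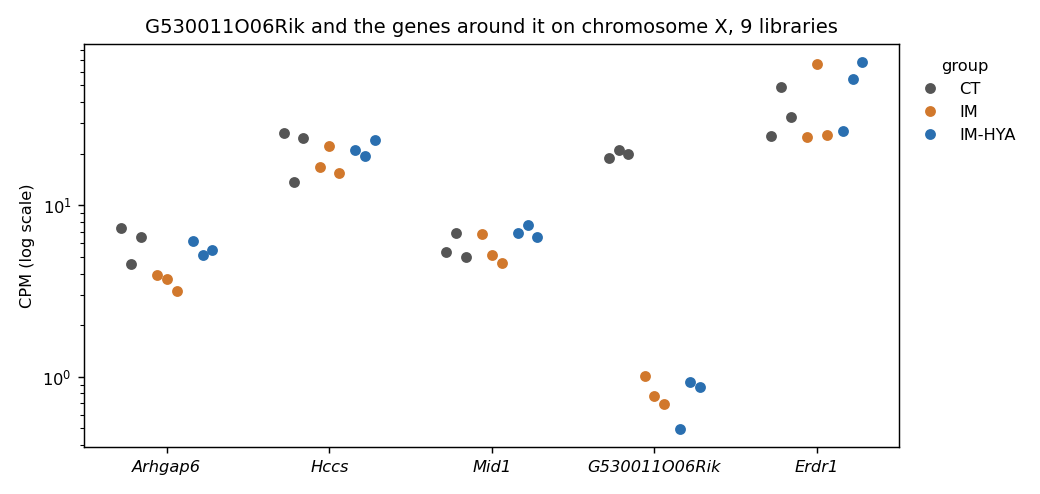
CPM on a log axis of G530011O06Rik and the 4 tested genes around it on chromosome X, 1 point per library, coloured by group. G530011O06Rik is near 20.0 CPM in the 3 CT libraries and at or below 1.01 CPM in all 6 cast libraries, while the neighbours overlap between groups.

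No other gene passed, and the next smallest adjusted p was 0.781. An unadjusted p under 0.05 was reached by 519 genes above (2.82%) and 625 below (3.39%), together 6.21% of those tested. DESeq2 called 24 genes, 15 higher and 9 lower, including Hsph1, Fbrs, Ighv1-84, Xlr3b, Foxj3, Trdc, Fkbp5, Mir703, Tmem174, Vsig8, Gm41699, Rps14 and Lsr, which are described below (adjusted p from 0.000215 to 0.0412). The median SE of a fold change was 0.32 and the median fold change of all genes 0.03. IM against CT and IM-HYA against CT each called 1 gene, the same lncRNA. IM-HYA against IM called 0 genes with edgeR, with 1411 (7.66%) at an unadjusted p under 0.05.

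Read per library, 722 genes (3.92%) had all 6 cast libraries on one side of all 3 CT libraries, 347 above (1.88%) and 375 below (2.04%). On the authors' FPKM values the split was 966 above and 5 below, and the median fold change of all genes was 0.42. Most of the 722 were modest in size, with 551 under 2-fold. By type, pseudogenes had 66 of 915 below (7.21%) and 3 above (0.328%). Protein-coding genes had 316 of 15332 above (2.06%) and 250 below (1.63%), and lncRNAs 17 of 1700 above (1%) and 47 below (2.76%). At least 1 log2 in both diets was reached by 68 of the genes above and 49 of those below. The genes described next are the non-overlapping ones with the smallest p. None passed the adjustment in edgeR, and their values are descriptions of these 9 libraries.

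**Figure D2:**
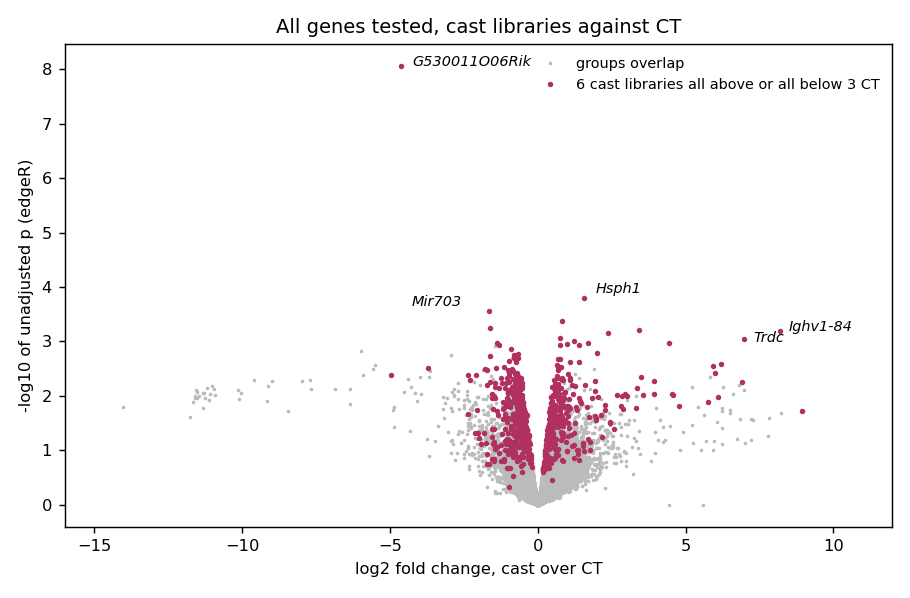
Log2 fold change (cast over CT) against -log10 of the unadjusted p from edgeR for all 18414 genes tested, with the 722 non-overlapping genes coloured. G530011O06Rik, at -4.64, stands alone at the top, and the long left arm holds pancreatic genes that are high in CT 2.

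Among the genes above, the smallest p belonged to Hsph1, a chaperone of the Hsp110 family that helps refold proteins after heat or other stress. It was at 15.9, 15.4 and 16.9 CPM in CT, at 53.1, 65.1 and 39.0 in IM and at 32.5, 62.1 and 34.5 in IM-HYA. The lowest cast library was thus well above a tight control group. The fold change was 1.56 (SE 0.26, adjusted p = 0.781), with 1.70 in IM and 1.42 in IM-HYA. Its RefSeq promoter window (chr5:149636287-149636586, minus strand, GRCm38.p6) is shown because it holds the core letters of a heat shock element, in capitals, 41 bases after the start site.
Hsph1: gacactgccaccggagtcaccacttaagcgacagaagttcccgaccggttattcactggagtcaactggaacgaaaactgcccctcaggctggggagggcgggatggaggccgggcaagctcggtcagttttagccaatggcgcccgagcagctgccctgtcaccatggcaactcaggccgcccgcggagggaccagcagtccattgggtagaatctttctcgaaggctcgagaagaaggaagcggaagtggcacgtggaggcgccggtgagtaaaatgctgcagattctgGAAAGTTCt
The letters searched were GAANNTTC on both strands, and 9.04% of 27025 genes with a promoter window have a match. A second RefSeq window of Hsph1, with another start site, holds the same letters. Among the 24 genes named here that have a window, 2 hold this motif, the other being Saa3. A match of letters does not show that a factor binds there.

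Fkbp5, a co-chaperone that lowers glucocorticoid receptor affinity and is itself switched on by that receptor, was at 31.3, 29.9 and 39.5 CPM in CT. It was at 64.9, 72.3 and 115 CPM in IM and at 57.5, 61.9 and 99.6 in IM-HYA, again with no overlap (1.22, SE 0.26, adjusted p = 0.781). Fbrs, linked to Polycomb complexes, was at 20.8 to 24.0 CPM in CT and 33.1 to 46.1 in cast libraries (0.84, SE 0.16, adjusted p = 0.781). Foxj3, a forkhead transcription factor, was at 19.1 to 25.2 and 35.7 to 43.0 CPM (0.77, SE 0.16, adjusted p = 0.781). In both genes the cast libraries of the 2 diets lay close together, with SDs over 6 libraries of 4.46 and 2.71 CPM.

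Xlr3b, a gene of the X-linked lymphocyte-regulated family, was at 0.495, 0.137 and 0.628 CPM in CT, at 2.07, 1.96 and 1.91 in IM and at 2.18, 1.93 and 3.53 in IM-HYA (2.38, SE 0.48, adjusted p = 0.781). Its near-identical relative Xlr3a was at 0.306, 0.820 and 0.799 CPM in CT and at 0.884 to 4.18 CPM in cast libraries (2.005, SE 0.46). Xlr3c had 0 counts in the 3 CT libraries and between 0 and 30 in cast libraries. Reads of these copies can be split between them by the counting, so the level of each single copy is uncertain.

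The antigen receptor segments Ighv1-84 and Trdc had no count in CT. Ighv1-84, a variable segment of the antibody heavy chain, had 132, 63 and 7 counts in IM and 18, 51 and 20 in IM-HYA, at least 30.2-fold higher than a floor of 3 counts summed over the CT libraries. Trdc, the constant region of the delta T cell receptor, had 9 to 27 counts in each cast library, at least 10.5-fold higher over the same floor. Ighv6-6 had 2 counts in each CT library and 5 to 181 in cast libraries, and its reads can be shared with near-identical segments. B cell markers had a mean log2 CPM of 1.88 to 2.33 in CT and of -0.83 to 5.05 in cast libraries, and T and NK cell markers of -0.74 to -0.45 and of -0.86 to 3.46. The part of immune cell content in these 3 segments was not tested. In bulk tissue, fewer cells of a type and less RNA per cell cannot be told apart.

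Among the genes below, Mir703 had the smallest p after the lncRNA. Counts on this microRNA gene (chromosome 5, 98475556 to 98475664, minus strand, inside an intron of Cfap299 on the other strand) gave 11.5, 11.3 and 12.8 CPM in CT. They gave 2.30, 5.66 and 2.42 CPM in IM and 3.73, 3.63 and 4.91 in IM-HYA (-1.66, SE 0.30, adjusted p = 0.781). The highest cast library, IM 2, was at 5.66 CPM, below the lowest control, and both diets lay below. The mature RNA from RefSeq (chr5:98475616-98475636, minus strand, GRCm38.p6) is shown with its seed, bases 2 to 8, in capitals.
mmu-miR-703: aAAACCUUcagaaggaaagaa
These libraries were not made for small RNAs per the labels, so counts on the gene do not measure the mature form.

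Tmem174, a membrane protein known mainly from kidney, was at 3.28, 3.01 and 3.94 CPM in CT, at 0.676, 0.466 and 0.930 in IM and at 1.98, 1.26 and 2.15 in IM-HYA. The fold change was -2.30 in IM and -0.92 in IM-HYA, and the difference between diets had an adjusted p of 0.604. Vsig8 was at 3.83 to 4.62 CPM in CT and 1.07 to 2.68 in cast libraries (-1.37, SE 0.30). Lsr, the lipolysis-stimulated lipoprotein receptor that also builds tricellular junctions of epithelia, was at 333, 257 and 312 CPM in CT, at 180, 192 and 168 in IM and at 206, 172 and 209 in IM-HYA (-0.68, SE 0.16, adjusted p = 0.781). All cast libraries lay below the lowest control by a clear margin at a high count. The lncRNA Gm41699 was at 3.96 to 5.25 and 1.44 to 2.77 CPM (-1.30, SE 0.29), and the pseudogene Gm12751 at 24.1 to 26.6 and 10.8 to 18.1 CPM (-0.81, SE 0.19).

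**Figure D3:**
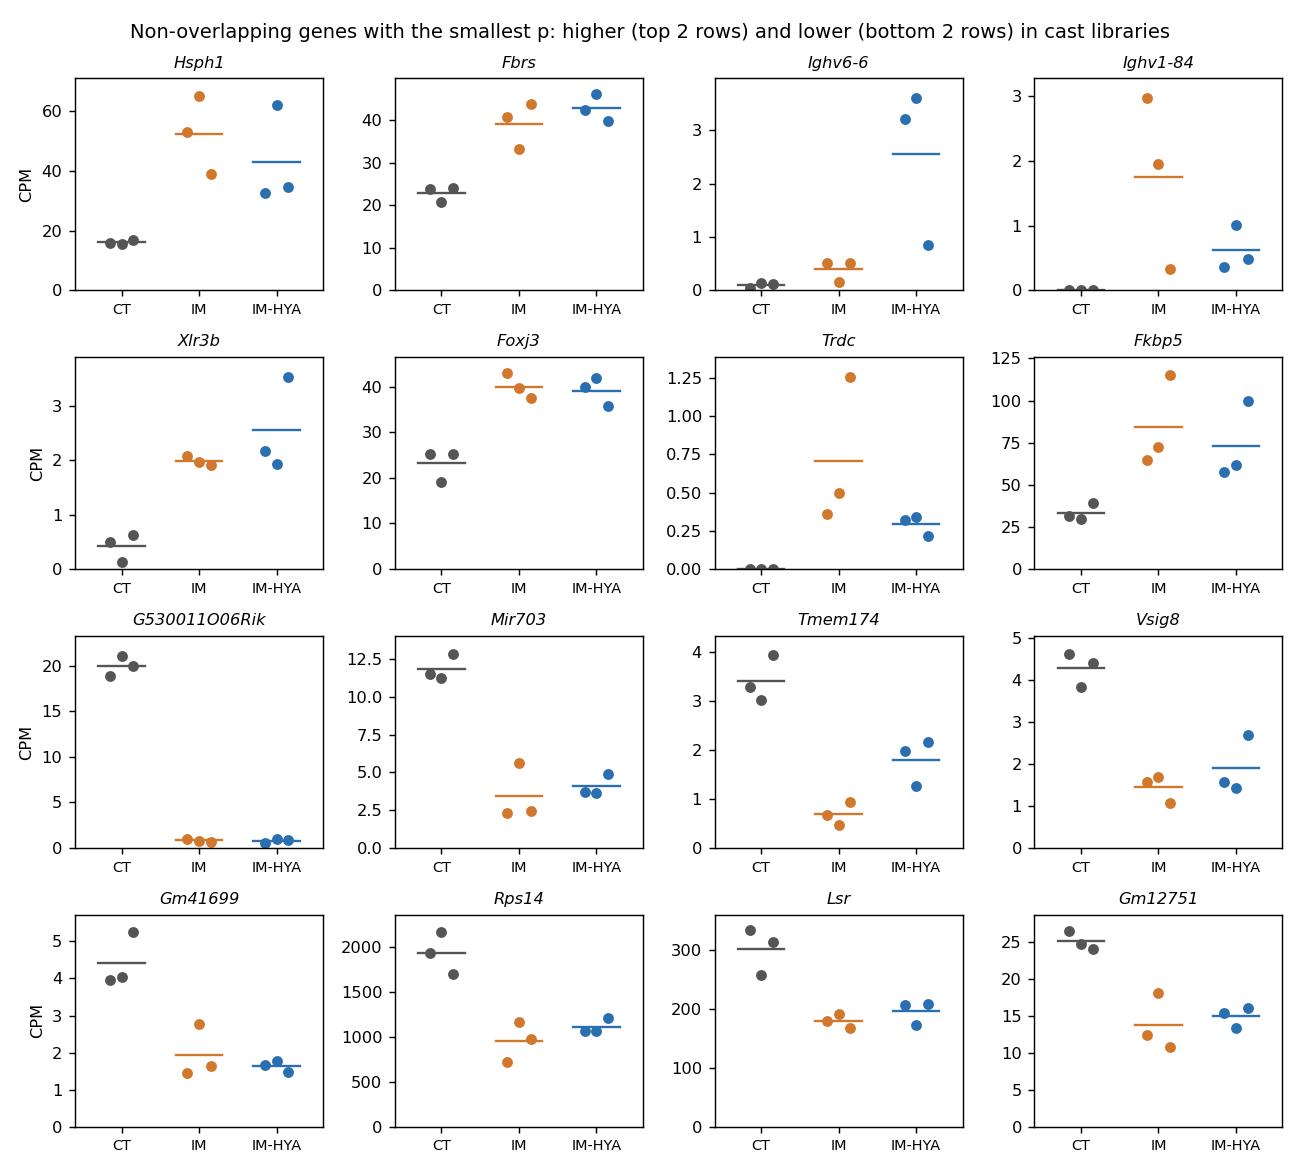
CPM per library of the non-overlapping genes with the smallest p, 1 panel per gene, linear axes from 0, higher genes in the top 2 rows and lower genes in the bottom 2. Hsph1 sits at 15.4 to 16.9 in CT and at 32.5 to 65.1 in cast libraries, and Lsr at 257 to 333 and 168 to 209.

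Of 26 gene groups tested by member, 0 had a member that passed with edgeR, though DESeq2 called their members Hsph1, Fkbp5 and Rps14, so they are given by counts and medians beside those of all genes. The group with the largest share on one side was the cytoplasmic ribosomal proteins, the building blocks of the ribosome. Of its 79 members, 15 (19%, against 2.04% of all genes) were below in all 6 cast libraries and 0 above. With an unadjusted p under 0.05, 22 lay below, against 3.39% of all genes. All 79 fitted values were below 0, against 8678 of all 18414 genes. The 15 became 40 without CT 3 and 26 without IM 3, and ran from 14 to 40 with 1 library left out. Of all genes, 872 of 18994 lay below without CT 3 and 615 of 18785 without IM 3, in place of 375 of 18414. The group's median was -0.46, with -0.42 in IM and -0.47 in IM-HYA, beside 0.03 for all genes. Rps14 was at 1932, 2175 and 1706 CPM in CT, at 718, 1172 and 980 in IM and at 1064, 1070 and 1213 in IM-HYA (-0.91, SE 0.20, adjusted p = 0.781). Rpl39 was at 296 to 315 CPM in CT and at 104 to 250 in cast libraries (-0.82, SE 0.21), and Rps20 at 786 to 1024 and 398 to 670 (-0.75, SE 0.21). The mean log2 CPM of the group was 9.71 to 10.2 in CT and 9.10 to 9.67 in cast libraries, so every cast library lay below every control. That separation was lost on the FPKM scale, where the group's median was 0.08 against 0.42 for all genes. Ribosomal protein pseudogenes, whose reads can be shared with their parent genes, had 12 of 105 below (11.4%), 0 above and a median of -0.60. CT 2, where pancreatic genes took 33.2% of counts, had the highest group mean, 10.2, and without it the median was -0.35. With the share of Rn18s-rs5 as a covariate it was -0.45.

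Circadian clock genes were the group with the largest share above. Of 20 members, 3 (15%, against 1.88% of all genes) were above in all 6 cast libraries. With an unadjusted p under 0.05, 9 lay above and 1 below, against 2.82% and 3.39% of all genes. The median was 0.54 (0.47 in IM, 0.55 in IM-HYA). Hlf, a PAR-domain output factor, was at 12.7, 5.60 and 8.27 CPM in CT, at 19.9, 17.3 and 14.0 in IM and at 21.2, 21.9 and 15.5 in IM-HYA (1.04, SE 0.27, adjusted p = 0.781). Tef, of the same family, was at 70.9 to 109 and 114 to 179 CPM (0.72, SE 0.22), and the repressor Cry1 at 2.39 to 6.20 and 6.30 to 10.5 (0.93, SE 0.31). The repressor Per2 was at 18.2, 11.4 and 8.10 CPM in CT and at 17.6 to 48.1 CPM in cast libraries (1.25, SE 0.33), and the arms overlapped. Per3 had 0.91 (SE 0.26) and Ciart 1.56 (SE 0.46), both overlapping, while Npas2, an activator partner of the loop, had -0.84 (SE 0.27). Controls were spread out in these genes, and CT 1 was above CT 2 and CT 3 in Per2, Per3, Hlf, Tef and Ciart. Without CT 1, or without IM 2, the group had 7 members above all controls in place of 3. Of all genes, 822 of 18890 and 674 of 18993 then lay above, in place of 347 of 18414. Without CT 3 the group's median was 0.35. The group mean was above all controls in 5 of 6 cast libraries, the exception being IM 2. The time of day at which tissue was taken is not in the labels, and its part in these values was not tested. The promoter of Per3 holds the D-box letters TTATGTAA at 2 places, 205 and 158 bases before its start site, on either strand, as 1.11% of the 27025 genes with a window do at least once. The other named gene with these letters, among those searched, is Xlr3b, which is not a clock gene. The E-box letters CACGTG, also searched, were in 3 of the 24 genes, against 8.09% of the 27025. These were Hsph1, Fkbp5 and Psmb10, which are not in the clock list.

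**Figure D4:**
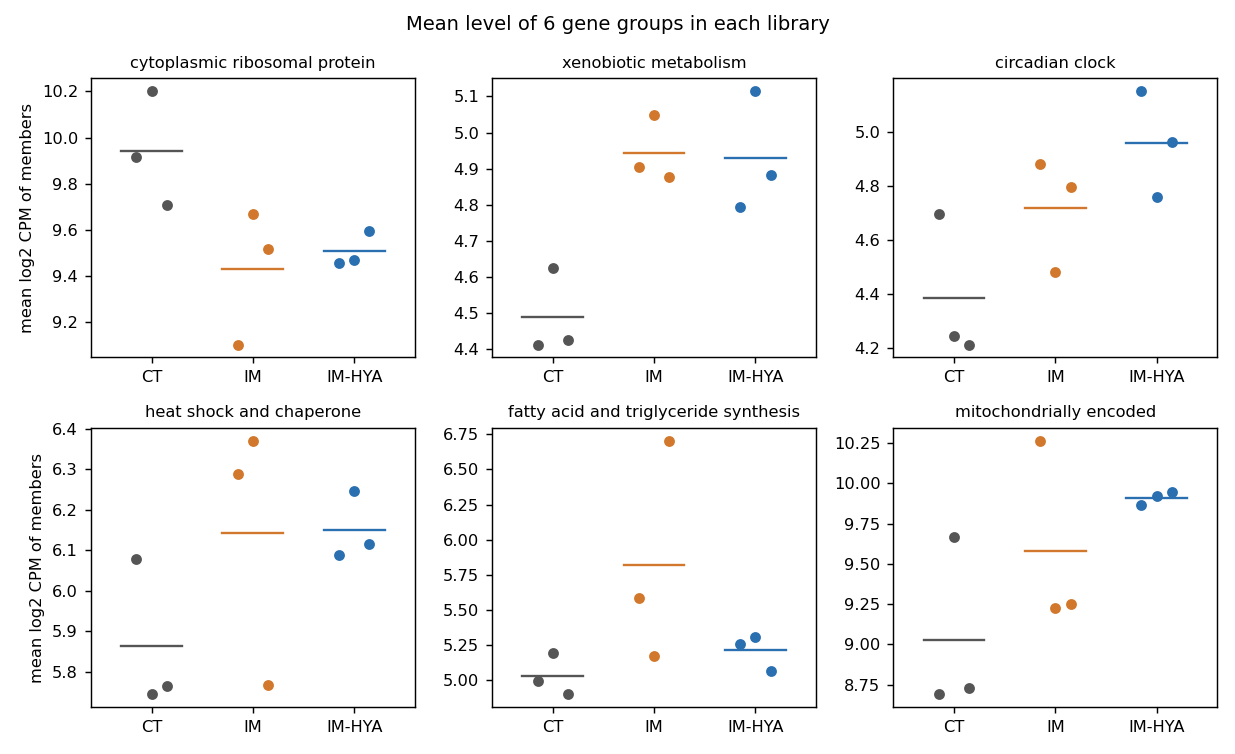
Mean log2 CPM of the members of 6 gene groups in each library, by group of mice. Ribosomal protein genes are at 9.71 to 10.2 in CT and 9.10 to 9.67 in cast libraries, and xenobiotic metabolism genes at 4.41 to 4.63 and 4.80 to 5.11, the 2 groups of 6 without overlap.

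Genes of xenobiotic metabolism, the oxidases, transferases and esterases that clear drugs and plant compounds, had a group mean of 4.41 to 4.63 log2 CPM in CT and of 4.80 to 5.11 in cast libraries, without overlap. That separation was also seen with relative log expression and upper quartile scaling. On FPKM, where 966 genes lay above and 5 below, other groups separated upward as well, so that scale adds nothing for this group. Of 34 members, 27 had a fitted value above 0, against 9736 of all 18414 genes. With an unadjusted p under 0.05, 7 lay above and 0 below, against 2.82% and 3.39% of all genes. In every cast library, 2 (5.88%, against 1.88% of all genes) were above, and the median was 0.30 (0.31 in IM, 0.45 in IM-HYA). Without CT 3, 5 members were above in every cast library, as were 911 of all 18994 genes. Ces1d, a carboxylesterase, was at 29.2, 24.4 and 21.7 CPM in CT, at 45.6, 41.4 and 54.8 in IM and at 33.4, 39.5 and 31.2 in IM-HYA (0.69, SE 0.17, adjusted p = 0.781). Gsta1, a glutathione transferase, was at 4.30 to 8.11 and 8.42 to 15.8 CPM (0.89, SE 0.27). Cyp3a13, a cytochrome P450, was at 62.9, 65.7 and 83.5 CPM in CT and at 80.4 to 120 in cast libraries (0.44, SE 0.18), with overlap. Some members were led by IM 3: Cyp2e1, at 4.79 to 17.8 CPM in CT, was at 427 CPM there, and Cyp4b1, at 1.43 to 2.05 CPM in CT, was at 26.6. That library also had the highest adipocyte marker mean, 6.06 log2 CPM against 2.86 to 4.84 in the other 5 cast libraries, and the part of adipose tissue in these members was not tested.

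Fatty acid and triglyceride synthesis had 2 of 23 members (8.7%, against 1.88% of all genes) above in every cast library. With an unadjusted p under 0.05, 4 lay above and 0 below, against 2.82% and 3.39% of all genes. Fitted values were above 0 in 21 members, and the median was 0.40 (0.71 in IM, 0.27 in IM-HYA). Dgat2, which makes triglyceride in its last step, was at 16.2, 23.0 and 12.8 CPM in CT, at 55.7, 23.2 and 55.8 in IM and at 31.1, 30.5 and 29.6 in IM-HYA (1.09, SE 0.30, adjusted p = 0.781). IM 2 only just cleared CT 2. The count of members above in every cast library was 1 with RLE scaling, 0 under a stricter filter on low CPM and 5 without CT 2. Without CT 2, 888 of all 19121 genes were above in every cast library. Scd1, a fatty acid desaturase, was at 44.5 to 59.3 CPM in CT and at 3192 in IM 3, but at 59.3 in IM-HYA 1 (2.45, SE 0.96). Fasn was likewise at 1300 CPM in IM 3 and 78.9 to 198 in the other cast libraries. Without IM 3 the group's median was 0.19, and that library's adipocyte marker level is given above.

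Heat shock and chaperone genes had, beside Hsph1, 1 other member without overlap. Stip1, which joins Hsp70 to Hsp90, was at 60.9, 51.4 and 50.9 CPM in CT, at 80.6, 101 and 116 in IM and at 72.1, 97.1 and 66.4 in IM-HYA (0.70, SE 0.19, adjusted p = 0.781). In all, 2 of 26 members (7.69%, against 1.88% of all genes) were above in every cast library. Of the members, 22 had a fitted value above 0, against 9736 of all 18414 genes, and the median was 0.16. Without CT 1 the median was 0.28 and without IM 3 it was 0.27, each with 5 members above in every cast library. Of all genes, 822 of 18890 without CT 1 and 644 of 18785 without IM 3 were above in every cast library. With the share of Rn18s-rs5 as a covariate the group's median was 0.09. The group mean was above all controls in 5 of 6 cast libraries, the exception being IM 3. Of 21 glucocorticoid receptor genes and targets, Fkbp5 was the 1 without overlap (4.76%, where 1.88% of all genes lay above). With an unadjusted p under 0.05, 3 lay above and 1 below, against 2.82% and 3.39% of all genes, and the median was 0.36. The median was 0.15 without CT 3, 0.16 without IM-HYA 3, 0.23 without IM 3 and 0.15 with the share of Rn18s-rs5 as a covariate. With 1 library left out, 1 to 3 members were above in every cast library, as were 394 to 911 of all genes tested. Tsc22d3, an anti-inflammatory target of the receptor, was at 92.3 to 118 CPM in CT and 117 to 250 in cast libraries (0.53, SE 0.24), and Per1 at 22.7 to 38.4 and 33.9 to 59.6 (0.63, SE 0.23), both with overlap. Zbtb16 was at 2.94 to 5.52 CPM in CT and at 28.4 in IM 3 against 4.19 to 9.96 in the other cast libraries (1.21, SE 0.55). In the other direction, the phosphatase gene Dusp1 was at 15.1 to 46.6 CPM in CT and 13.0 to 18.2 in cast libraries (-0.81, SE 0.32), and the metallothionein Mt2 at 145 to 835 and 54.3 to 344 (-1.11, SE 0.58), both with overlap.

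Genes encoded by the mitochondrial genome had 12 of 13 fitted values above 0, against 9736 of all 18414 genes, and a median of 0.60. With an unadjusted p under 0.05, 3 lay above, against 2.82% of all genes. Above in every cast library was 1 member (7.69%, against 1.88% of all genes). That was ND4L, a subunit of complex I, at 12.5, 31.2 and 35.3 CPM in CT, at 186, 52.1 and 62.6 in IM and at 62.2, 67.4 and 61.3 in IM-HYA (1.60, SE 0.46, adjusted p = 0.781). The mitochondrial median was 0.18 with the share of Rn18s-rs5 as a covariate, 0.26 without IM 1 and 1.10 without CT 2, where 4 members were above in every cast library. Without CT 3, 2 were. Of all genes, 888 of 19121 without CT 2 and 911 of 18994 without CT 3 were above in every cast library. Nuclear genes of oxidative phosphorylation had 28 of 35 fitted values below 0 and a median of -0.22. Their 1 member below in every cast library was Ndufb8 (2.86%, against 2.04% of all genes).

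**Figure D5:**
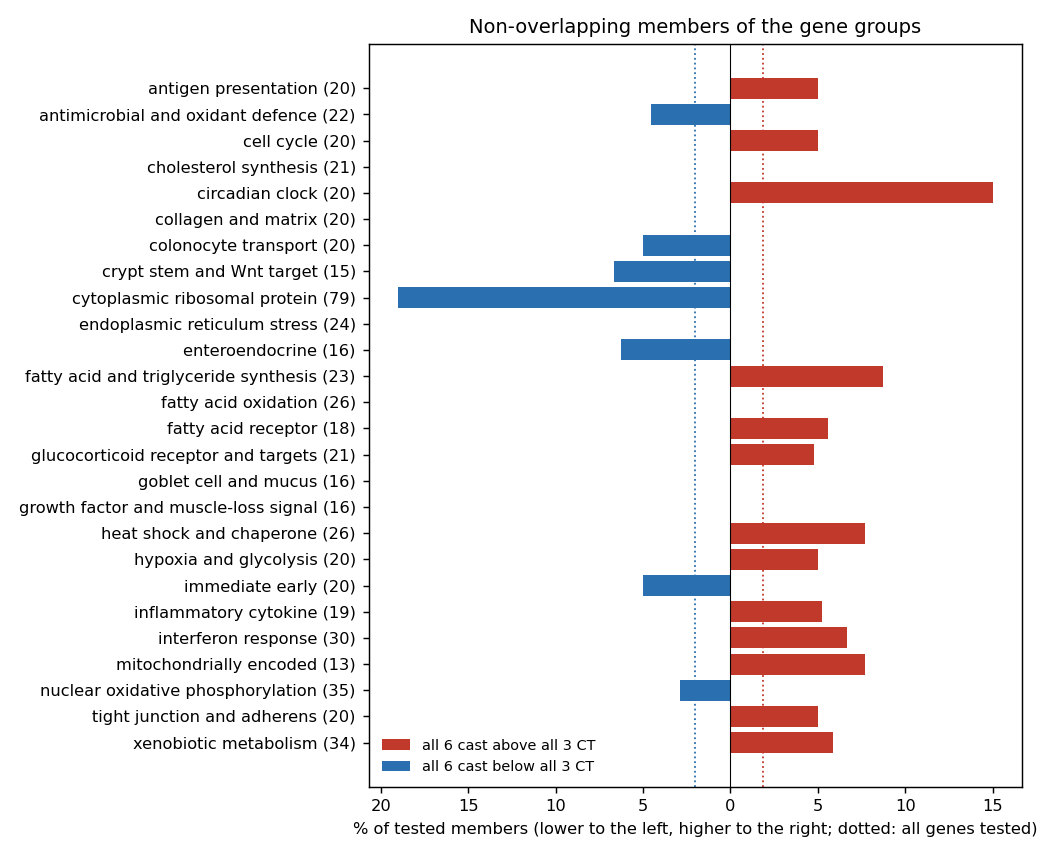
Share of the tested members of each gene group with all 6 cast libraries above (right) or below (left) all 3 CT libraries, in percent, with the number tested in brackets and dotted lines for all genes (1.88% above, 2.04% below). Ribosomal proteins reach 19% to the left and clock genes 15% to the right.

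Epithelial groups had few members without overlap, where 1.88% of all genes lay above and 2.04% below. In groups of this size a single member exceeds those shares. Pyy, the satiety peptide of colonic L cells, was at 162, 248 and 187 CPM in CT, at 92.1, 112 and 45.3 in IM and at 119, 120 and 119 in IM-HYA (-0.998, SE 0.26, adjusted p = 0.781), as the 1 of 16 enteroendocrine genes (6.25%). The IM-HYA libraries lay close to one another for this gene, with an SD of 0.690 CPM. Car4, a carbonic anhydrase of surface colonocytes, was at 1595 to 1774 CPM in CT and 898 to 1385 in cast libraries (-0.51, SE 0.18), the 1 of 20 colonocyte genes (5%). Ephb3, a crypt guidance receptor, was at 44.9 to 53.5 and 27.2 to 43.7 CPM (-0.34), the 1 of 15 crypt genes (6.67%). The Wnt target Sox9 overlapped (-0.85, SE 0.29, and -0.49 without CT 1). Goblet and mucus genes had 0 of 16 without overlap. With an unadjusted p under 0.05, 0 of them lay above and 3 below, against 2.82% and 3.39% of all genes.

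Immediate early genes had a median of -0.30. With an unadjusted p under 0.05, 6 of 20 members lay below and 0 above, against 3.39% and 2.82% of all genes. Below in every cast library was 1 member (5%, against 2.04% of all genes). That member was Ier2, at 149, 122 and 120 CPM in CT, at 78.8, 102 and 84.7 in IM and at 84.4, 95.4 and 94.0 in IM-HYA (-0.54, SE 0.15, adjusted p = 0.781). Fos, at 183 CPM in CT 1 but 47.3 and 53.0 in CT 2 and CT 3, was at 5.53 to 53.6 in cast libraries (-1.59, SE 0.61). The group's median was -0.03 without CT 1 and -0.46 without CT 2 or without IM 3. Without CT 2, 3 members lay below in every cast library, and 2 without CT 3, IM 3 or IM-HYA 3. Of all genes, 977 of 19121 lay below without CT 2 and 872 of 18994 without CT 3. That count was 615 of 18785 without IM 3 and 509 of 18917 without IM-HYA 3.

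The interferon mediators Stat2 (9.05 to 13.0 CPM in CT, 14.2 to 20.5 in cast libraries, 0.63, SE 0.19) and Irf7 (28.0 to 30.7 and 34.7 to 66.4 CPM, 0.57, SE 0.20) were 2 of 30 (6.67%, against 1.88% of all genes). Saa3, an acute phase protein, had 0, 0 and 9 counts in CT and was at 0.958 to 21.3 CPM in cast libraries (4.57, SE 1.43, adjusted p = 0.781). It was called with the share of Rn18s-rs5 as a covariate (adjusted p = 0.0155). Saa3 was the 1 of 19 inflammatory cytokine genes above in every cast library (5.26%, against 1.88% of all genes). The list's median was -0.19. With an unadjusted p under 0.05, 1 of its members lay above and 3 below, against 2.82% and 3.39% of all genes. Prdx1, an antioxidant enzyme, was at 619 to 655 and 354 to 585 CPM (-0.42), while Itln1, a lectin of goblet and Paneth cells, overlapped (-1.83, SE 0.59). Itln1 was at 9.76 CPM in CT 3 against 1.13 and 2.25 in the other controls, and its fold change was -0.45 without CT 3. Vegfa, from the hypoxia list, was at 24.2 to 28.6 and 32.3 to 42.9 CPM (0.50, SE 0.14). Nr1h4, the bile acid receptor FXR, was at 19.3 to 23.2 and 25.4 to 33.4 CPM (0.44, SE 0.16). Vegfa (1 of 20, 5%) and Nr1h4 (1 of 18, 5.56%), both above, and Prdx1 (1 of 22, 4.55%), below, were the single non-overlapping members of their lists. So were H2-D1 and Mcm3, above (each 1 of 20, 5%), and, among skeletal muscle markers, Actn3, below (1 of 10, 10%). Over all genes, 1.88% lay above and 2.04% below, and a single member of such small lists exceeds those shares. Endoplasmic reticulum stress, fatty acid oxidation, cholesterol synthesis, collagen and growth factor lists had 0 non-overlapping members.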

How the data were processed

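Bulk RNA sequencing of mouse colon gave 9 libraries in 3 groups of 3. The submitters' processing notes list HISAT2 2.1.0, StringTie 2.1.3b, Trimmomatic and bcl2fastq 2.20.0, and the build GRCm38 (mm10). For the strand setting and annotation release, they are not given in the sources used here. As files, the authors deposited whole-number read counts per gene, not normalized, which entered the tests. The deposited FPKM values, scaled by the authors by length and library total, entered 1 alternative. The deposited TPM values, scaled by the authors to a common sum, were used only to describe levels. The number of per-sample columns left unused was 0.

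Of the gene identifiers, 45679 matched RefSeq GRCm38.p6 and 98 did not. The 18414 genes tested passed edgeR's filterByExpr (minimum count 10, total 15). One edgeR 4.0.16 quasi-likelihood fit (robust, TMM, R 4.3.3) held all 9 libraries in 3 groups, with 6 residual degrees of freedom and a common biological coefficient of variation of 0.469. The contrast was the mean of IM and IM-HYA against CT, adjusted by Benjamini-Hochberg at 0.05. Library totals ran from 19638401 to 42917198, and the floor of 3 counts covers counting error only. Replicates all differed by more than counting noise (smallest chi-square per gene 39.8). List means used log2 CPM with a prior count of 2.

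The comparison, the 41 gene and marker lists and the tests were chosen with earlier results of these data known. Named genes were those passing with no overlap between arms and at least 1 CPM, filled to 8 per direction with the non-overlapping genes of smallest p, and up to 3 members of smallest p from each of the 20 lists whose non-overlapping share in 1 direction was over 2 times that of all genes. A gene that this rule names is not reported here. A small list meets the share rule with 1 non-overlapping member, as the enteroendocrine list did with 1 of 16, so meeting it does not mark out a group. Other genes given with values were chosen after their values were seen. The edgeR fit of cast against CT was tested on simulated data. It recovered 7.46% of 67 changes of 2-fold, 64.2% of 67 of 4-fold and 87.9% of 66 of 8-fold, and 10 of its 116 calls were false. Each simulated gene was drawn independently, without shared library differences such as those of CT 2 or IM 3. The changed genes all had a mean of at least 1 CPM. With 116 calls the adjustment was also less strict than with the 1 call of the real data. These rates therefore do not carry over to the real comparison, and even in the simulation most 2-fold changes were missed. Alternatives were other scalings and filters, DESeq2 1.42.0, limma 3.58.1 (voom with quality weights, and log2(FPKM + 1)), a 2-arm fit, a replicate block, covariates and left-out libraries. The medians of 8 lists under these settings, and the count of cast libraries outside the controls, were added after seeing the data. Python 3.11.15 with matplotlib 3.10.9 drew the figures.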

Additional observations from a re-analysis of the deposited data

Results flagged for a closer look

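Within the 6 cast libraries, 10 of the 41 genes named had 1 library far from the other 5, by a gap test that flags about 1 in 20 groups by chance. IM 3 stood apart in 5 of them. Thrsp, a regulator of lipogenesis, was at 256 CPM there against 27.4 in the next library. Cyp4b1 was at 26.6 CPM against 8.99, Saa3 at 21.3 against 5.57, and Trdc at 1.26 against 0.498. Pyy was low there, at 45.3 CPM against 92.1 in the next lowest. IM 3 also had the highest mean levels of adipocyte (6.06 log2 CPM), B cell (5.05), T and NK cell (3.46) and anterior Hox genes (4.64), and their part in these values was not tested. ND4L was at 186 CPM in IM 1 against 67.4 in the next library. In IM 2, Sox9 was at 104 CPM against 64.4 and Gm41699 at 2.77 against 1.77. Xlr3b was at 3.53 CPM in IM-HYA 3 against 2.18, and Itln1 at 2.71 in IM-HYA 2 against 1.31.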

How the results depend on the processing

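G530011O06Rik was called in cast against CT under all 22 alternatives run, with an adjusted p from 9.76e-59 to 0.00812 and a log2 fold change from -4.75 to -2.39, the smallest on log2(FPKM + 1). The count of calls, 1, became 24 with DESeq2 and 2 with the share of Rn18s-rs5 as a covariate, which added Saa3. Leaving out 1 library in turn gave 1 to 2, the second gene being Snrpn without CT 1. For IM against CT the count of 1 became 65 with DESeq2, 2 with that covariate, 0 without CT 2 and IM 3 together, and 1 to 2 with 1 library left out. For IM-HYA against CT it became 15 with DESeq2, 7 on FPKM, 2 with the covariate, and 1 to 2 with 1 library left out. The 722 non-overlapping genes became 3046 without CT 2 and IM 3, and 791 to 1865 with 1 library left out, where fewer libraries make separation easier: leaving out CT 1 gave 1446, CT 2 1865, CT 3 1783, IM 2 1254 and IM 3 1259. Of 876 alternative values for the other 40 named genes, 860 kept direction and side of the threshold, 14 passed it and 2 turned, Ier2 (0.010) and Car4 (0.11), both on FPKM. With the replicate number as a block, 1 gene was called in each contrast against CT. Same-numbered libraries correlated from -0.27 to 0.36 in their deviations from group means, and the pairs numbered 1 were at 0.26, 0.25 and 0.31. Libraries of different numbers were not compared in this way, so the check cannot settle whether the numbers are pairs. The main fit did not use them as pairs.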
